A study of Gallus gallus with 4 samples.

Results

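The probes of the mir-17-92 microRNA cluster were followed in DT40, a chicken B cell line, over 4 cultures. The members are the non-control probes of the array whose name in the files is gga-mir-17, gga-mir-18a, gga-mir-19a, gga-mir-19b, gga-mir-20a or gga-mir-92, with or without an arm suffix, a choice that uses no measured value. This gave 12 probes of 42034, as 2 probes for each of 6 names: gga-mir-17-5p, gga-mir-17-3p, gga-mir-18a, gga-mir-19a, gga-mir-19b and gga-mir-20a. No probe with a gga-mir-92 name was among them, so that member was not analysed here.

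DT40 is a line derived from a bursal lymphoma of the chicken, induced by avian leukosis virus. The groups were DT40 stably expressing OsTIR1 with 500 µM indole-3-acetic acid (IAA), the same line without IAA, parental DT40 with 500 µM IAA and parental DT40 without IAA. OsTIR1 is an auxin receptor of rice, an F-box protein, and IAA is a natural auxin. The IAA was dissolved in ethanol and acted for 6 h at 38.5 °C. All cultures grew in DMEM with beta-mercaptoethanol, 1% chicken serum and 10% fetal calf serum. The sources used here do not give whether untreated cultures received ethanol, which promoter drove OsTIR1 or whether that line was a single clone. The question put to the arrays was whether auxin turns on particular genes in an animal cell. Each group was 1 culture on 1 array.

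MicroRNAs of a cluster are cut out of a shared primary transcript. Drosha releases hairpins from it in the nucleus, Dicer cuts each hairpin to a duplex, and usually 1 arm of the duplex, named 5p or 3p, is loaded into an Argonaute protein to repress messages with a matching site. The mir-17-92 transcript is activated by MYC in human cells, and its overexpression speeds MYC-driven B cell lymphoma in mice, where the cell death gene BCL2L11 is among the targets. In RefSeq's chicken assembly the hairpin genes MIR92A1, MIR19B1, MIR20A, MIR19A, MIR18A and MIR17 follow each other in this order on chromosome 1, inside the span annotated to the glypican gene GPC5. That assembly is not the build of the array (galGal2) and was used for names and neighbours alone.

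RNA was extracted as total RNA with a column kit made for longer RNAs. The labels do not say whether the probes read mature microRNAs, hairpins or the primary transcript, and this was not tested. Of the 5 activators of the cluster, the 7 processing factors and the 9 mammalian target genes listed for comparison, 0 had a named probe among the 50 genes with a symbol. The B cell identity of the cultures could not be checked, since of 9 B cell markers RAG1 alone had a named probe, and it was above background on 0 arrays. TLR4, the 1 listed macrophage marker with a named probe, was also above background on 0 arrays.

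All 4 arrays lay on 1 slide and were scanned once. Between 47.8% and 58.0% of the 42034 probes were well above background on an array, and 46.2% on all 4. The share was 55.4% and 58.0% in the OsTIR1 line with and without IAA. It was 49.9% and 47.8% in parental DT40 with and without IAA. The lowest intensity above background was 6.1 and 5.7 units in the OsTIR1 line with and without IAA. In parental DT40 it was 10.4 and 14.3 units with and without IAA, so the floor was highest on the untreated parental array. Levels below are log2 of the processed intensity minus log2 of the array's 75th percentile, so that a level of 0 is an intensity from 168 to 177 units. Beside a difference stands a nominal 95% interval, built from the error that the scanner software gave for both spots. It leaves out how cultures vary. In every comparison its smallest half-width over all probes well above background on both arrays was 0.40. At the cluster probes it was 0.40 to 0.41. For them the interval thus acts nearly as a fixed cutoff and does not show a spread measured at each probe. The number of arrays, 1 per group, limits the precision of every value.

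All 12 cluster probes were well above background on all 4 arrays. Their intensities ran from 145 to 688 units, at the 73.4th to 84.9th percentile of all probes of an array. Levels of different probes also depend on the probe itself, so they rank the spots and not the amounts of RNA.

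The brightest were the probes of gga-mir-17-3p, the arm of the mir-17 hairpin that is usually less abundant in its mature form. Probe A_87_P008646 had 652 units in the OsTIR1 line with IAA and 679 units without it, against 650 units in parental DT40 with IAA and 672 units without it. Probe A_87_P008647 had 679 and 661 units in the OsTIR1 line with and without IAA, and 688 and 657 units in parental DT40 with and without IAA. These 8 values lie close together, and for each probe the range over the arrays was 0.06 and 0.14 on the log2 scale.

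The 5p arm, gga-mir-17-5p, gives the cluster its best known regulator, a repressor of cell cycle inhibitors and other brakes on growth in mammals. Probe A_87_P008648 had 244 units in the OsTIR1 line with IAA and 258 units without it, against 243 units in parental DT40 with IAA and 230 units without it. Probe A_87_P008649 had 211 and 216 units in the OsTIR1 line with and without IAA, and 209 and 198 units in parental DT40 with and without IAA. Both were lowest in untreated parental DT40 and highest in the untreated OsTIR1 line. Their mean levels over the arrays were 0.51 and 0.28.

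For gga-mir-20a, of the same seed family as miR-17, the probes followed each other. Probe A_87_P008654 had 194 units in the OsTIR1 line with IAA and 196 units without it, against 201 units in parental DT40 with IAA and 190 units without it. Probe A_87_P008655 had 203 and 207 units in the OsTIR1 line with and without IAA, and 213 and 196 units in parental DT40 with and without IAA. After scaling, both were lowest in untreated parental DT40 and highest in IAA-treated parental DT40.

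The probes of gga-mir-18a, whose seed is a variant of that of miR-17, did not follow each other. Probe A_87_P008650 had 245 units in the OsTIR1 line with IAA and 259 units without it, against 238 units in parental DT40 with IAA and 193 units without it. Probe A_87_P008651 had 235 and 227 units in the OsTIR1 line with and without IAA, and 229 and 243 units in parental DT40 with and without IAA. After scaling, the first was low on the untreated parental array (0.12, against 0.50 to 0.60 on the others), while the second lay between 0.40 and 0.48 on all 4 arrays.

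miR-19a and miR-19b share a seed, and in mice they account for much of the cluster's action in B cell lymphoma. For gga-mir-19a, probe A_87_P008652 had 184 units in the OsTIR1 line with IAA and 177 units without it, against 187 units in parental DT40 with IAA and 191 units without it. Probe A_87_P008653 had 164 and 177 units in the OsTIR1 line with and without IAA, and 157 and 179 units in parental DT40 with and without IAA. The probes went opposite ways in the scaling used for the levels. The first was higher on both IAA arrays than on both untreated arrays, and the second was lower. IAA minus untreated was 0.08 in the OsTIR1 line and 0.04 in parental DT40 at the first probe. At the second it was -0.08 and -0.11, and the nominal intervals had half-widths of 0.40 to 0.41. After median scaling instead, the second probe was higher with IAA, by 0.02 in the OsTIR1 line and 0.05 in parental DT40.

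For gga-mir-19b, probe A_87_P008656 had 189 units in the OsTIR1 line with IAA and 191 units without it, against 168 units in parental DT40 with IAA and 176 units without it. Probe A_87_P008657 had 184 and 184 units in the OsTIR1 line with and without IAA, and 189 and 145 units in parental DT40 with and without IAA. The first separated the lines, while the second set the untreated parental array apart from the other 3.

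**Figure D1:**
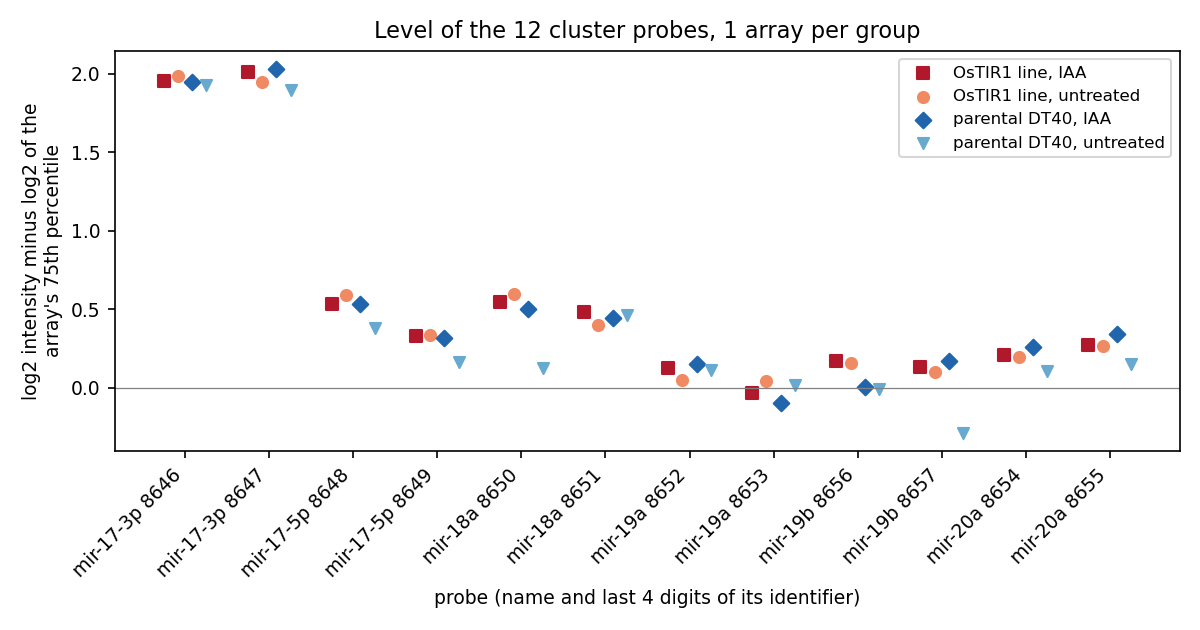
Level of each of the 12 cluster probes on the 4 arrays (vertical axis, log2 intensity minus log2 of the array's 75th percentile), with 1 point per array and probes grouped by name along the horizontal axis. The gga-mir-17-3p probes sit near 1.95 and 1.97, the other probes between -0.29 and 0.60, and probes A_87_P008650 and A_87_P008657 have 1 low point, from untreated parental DT40.

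The microRNA-named probes as a whole give the scale for these levels. All 244 of them, with 118 names, were well above background on all 4 arrays, against 46.2% of all probes. Their mean levels over the arrays ran from -0.64 to 4.24 with a median of 1.04, and the 12 cluster probes had a median of 0.27. Of the cluster probes, the gga-mir-17-3p pair ranked 230th and 232nd from the bottom of the 244, and the other 10 ranked between 8th and 48th.

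Names of microRNAs known as specific to other tissues were lit as well. They were picked after the values were seen. At probe A_87_P008497 of the liver microRNA gga-mir-122a there were 274 and 287 units in the OsTIR1 line with and without IAA, and 249 and 242 units in parental DT40 with and without IAA. The other gga-mir-122a probe, A_87_P008496, had 240 and 261 units in the OsTIR1 line with and without IAA. In parental DT40 it had 245 and 185 units with and without IAA. It was thus low on the untreated parental array, as A_87_P008650 and A_87_P008657 were. Drops at 1 probe of a name were not limited to that array, but the largest were on the parental arrays. As deviations from the probe's mean over the arrays, they were -1.43 at A_87_P008495 of gga-mir-183 and -1.28 at A_87_P008636 of gga-mir-148a without IAA. With IAA they were -1.07 at A_87_P008665 of gga-mir-125b and -1.02 at A_87_P008598 of gga-mir-206. In the OsTIR1 line the lowest deviation was -0.22, at A_87_P008468 of gga-mir-302b without IAA. Probe A_87_P008598 of gga-mir-206 had 656 and 687 units in the OsTIR1 line with and without IAA. In parental DT40 it had 233 and 509 units with and without IAA, so its low value was on the IAA-treated array. The other gga-mir-206 probe, A_87_P008599, had 590 and 536 units in parental DT40 with and without IAA. At probe A_87_P008623 of the muscle microRNA gga-mir-1a there were 306 and 328 units in the OsTIR1 line with and without IAA, and 284 and 297 units in parental DT40 with and without IAA. The other gga-mir-1a probe, A_87_P008622, had 297 and 297 units in the OsTIR1 line with and without IAA. In parental DT40 it had 309 and 291 units with and without IAA. These probes were well above background on all 4 arrays, and whether such spots read their own microRNA was not tested.

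**Figure D2:**
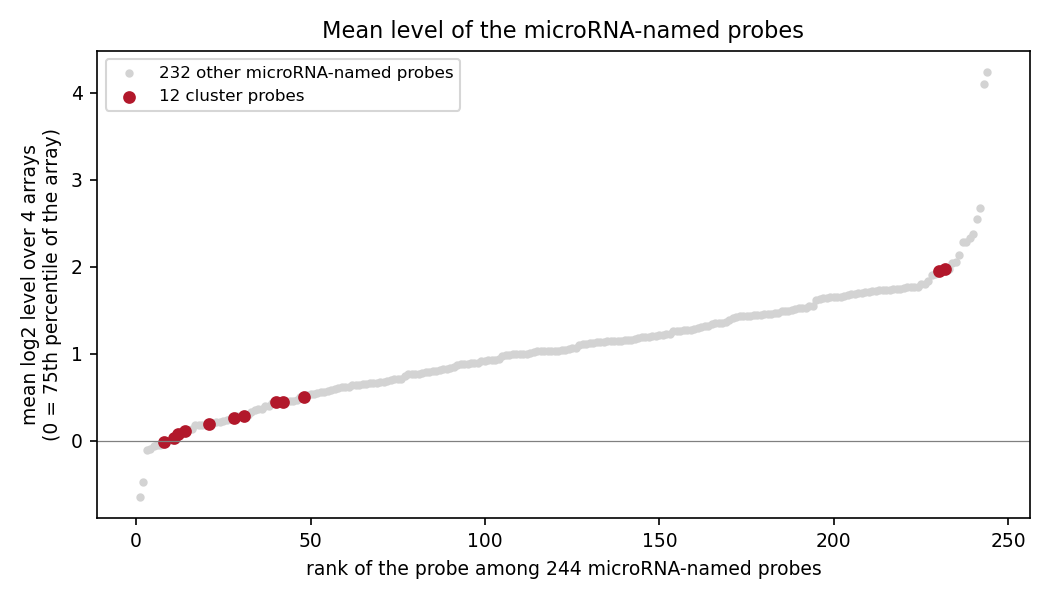
Mean level over the 4 arrays (vertical axis, log2, with 0 at the array's 75th percentile) of the 244 microRNA-named probes, ranked along the horizontal axis, with the 12 cluster probes in red. Of these, 10 lie among the 48 lowest ranks and the gga-mir-17-3p probes at ranks 230 and 232.

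The OsTIR1 line was compared with parental DT40 at matched treatment. With IAA, the 12 probes had a median difference of 0.003 on the log2 scale, from -0.07 for A_87_P008655 of gga-mir-20a to 0.17 for A_87_P008656 of gga-mir-19b. Without IAA the median was 0.10, from -0.07 for A_87_P008652 of gga-mir-19a to 0.47 for A_87_P008650 of gga-mir-18a. At least 1.5-fold apart were 0 of the 12 with IAA (5.86% of all probes measured on both arrays) and 0 of the 12 without it (6.39% of all). The nominal interval excluded 0 at 0 of 12 probes with IAA (9.26% of all) and at 1 of 12 without it (10.3% of all), the gga-mir-18a probe A_87_P008650 (0.07 to 0.88).

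The other 232 microRNA-named probes had medians of 0.01 with IAA and 0.11 without it, close to those of the cluster. All measured probes had medians of 0.01 and 0.004. Without IAA, 10 of 12 cluster probes were higher in the OsTIR1 line by any amount (50.7% of all probes), as were 209 of the 232. With the difference centred on the other microRNA-named probes, 6 of 12 were higher and the median was -0.01. With IAA, 7 of 12 were higher (52.3% of all probes), but the count ran from 4 to 10 and the median from -0.02 to 0.05 over the alternatives. The median was negative in 6 of 8 of them, the exceptions being median scaling and the series-level table. The line difference had opposite signs with and without IAA at 5 of 12 probes (31% of all). With median scaling, 12 of 12 were higher in the OsTIR1 line without IAA and 10 of 12 with it.

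IAA was compared with no IAA within each line. In the OsTIR1 line the 12 probes had a median difference of 0.01, from -0.08 for A_87_P008653 to 0.08 for A_87_P008652, both of gga-mir-19a. In parental DT40 the median was 0.14, from -0.11 for A_87_P008653 to 0.46 for A_87_P008657 of gga-mir-19b. At least 1.5-fold apart were 0 of 12 in the OsTIR1 line (2.19% of all) and 0 of 12 in parental DT40 (1.91% of all). The nominal interval excluded 0 at 0 of 12 in the OsTIR1 line (2.74% of all) and at 1 of 12 in parental DT40 (2.24% of all), which was A_87_P008657 (0.05 to 0.86).

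Here too the cluster had medians near those of the other microRNA-named probes, 0.01 in the OsTIR1 line and 0.11 in parental DT40. Higher with IAA by any amount were 7 of 12 cluster probes in the OsTIR1 line (49.1% of all) and 10 of 12 in parental DT40 (47.8% of all). In parental DT40 208 of the other 232 were higher as well. Centred on those, 7 of 12 cluster probes were higher, with a median of 0.04. The sign of the IAA difference was opposite in the lines at 5 of 12 (48.8% of all). With median scaling all 12 were higher with IAA in both lines. Half-widths of the cluster probes' intervals were 0.40 to 0.41 in all comparisons. Intervals that included 0 could still reach far from it, as for A_87_P008650 with IAA in parental DT40 (-0.03 to 0.78) and for A_87_P008657 between the untreated lines (-0.02 to 0.79). With the same half-widths, the interval calls of both comparisons numbered 0 with normexp and quantile normalization, 0 with centring on the other microRNA-named probes and 2 each with median scaling. The normexp setting adds an offset of 50, which shrinks log2 differences of such spots while the half-widths stay. Its largest differences were 0.39 between the untreated lines and 0.32 for IAA in parental DT40. Its 0 calls are thus no check on the differences.

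**Figure D3:**
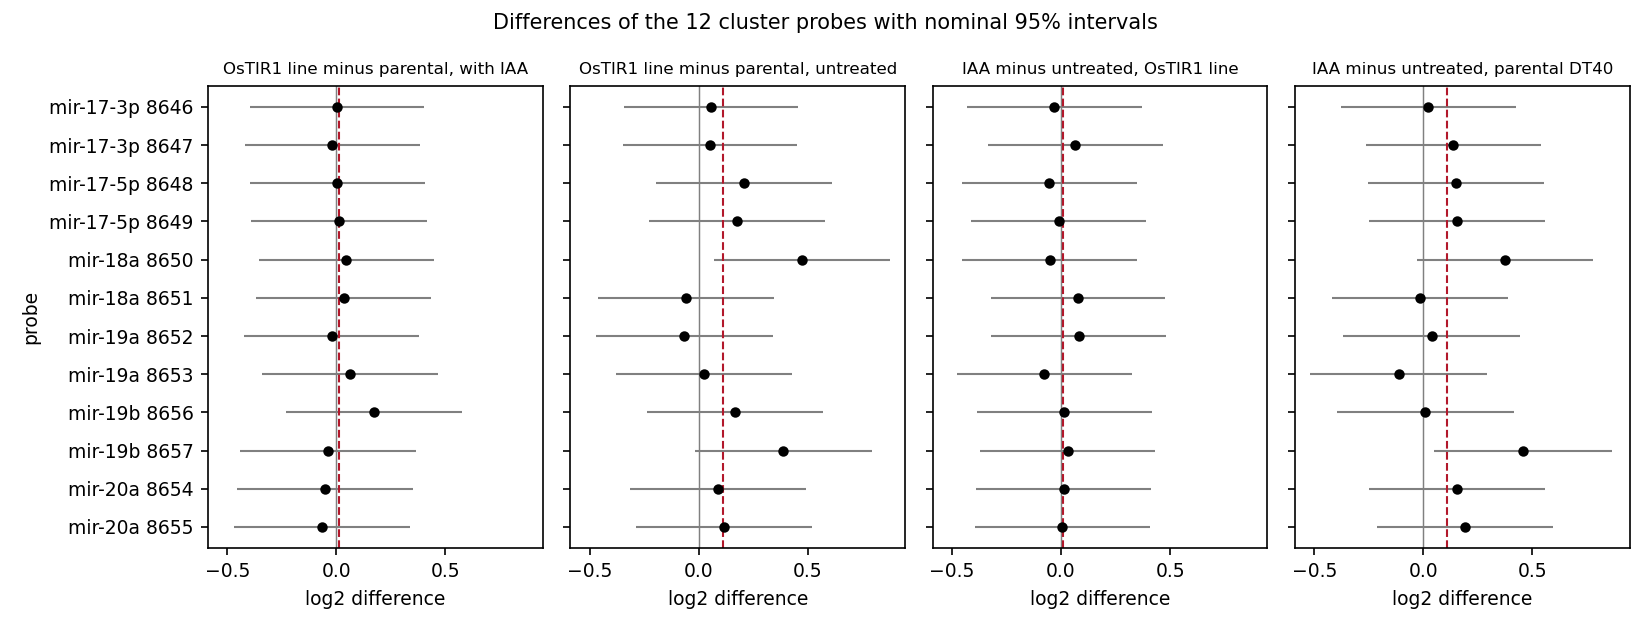
Log2 difference of each cluster probe in the 4 comparisons (horizontal axis), with the nominal 95% interval of the scanner software as bars and the median of the 232 other microRNA-named probes as a dashed red line. The interval lies above 0 for A_87_P008650 between the untreated lines (0.47) and for A_87_P008657 with IAA in parental DT40 (0.46).

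The comparison between the untreated lines and that for IAA in parental DT40 share the untreated parental array, and both were positive at most cluster probes. That array gave the lowest of the 4 levels at 9 of the 12 cluster probes (27.1% of all probes above background on every array). It did so at 185 of the other 232 microRNA-named probes (79.7%). The median deviation from the probe's mean over the arrays was -0.09 there for the cluster and -0.09 for the other microRNA-named probes, against 0.002 for all probes. On the other 3 arrays the cluster's medians were 0.03 in the OsTIR1 line with IAA, 0.04 in that line without it and 0.04 in parental DT40 with IAA. The lower level in untreated parental DT40 was thus shared by most microRNA-named probes, and the cause was not tested.

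**Figure D4:**
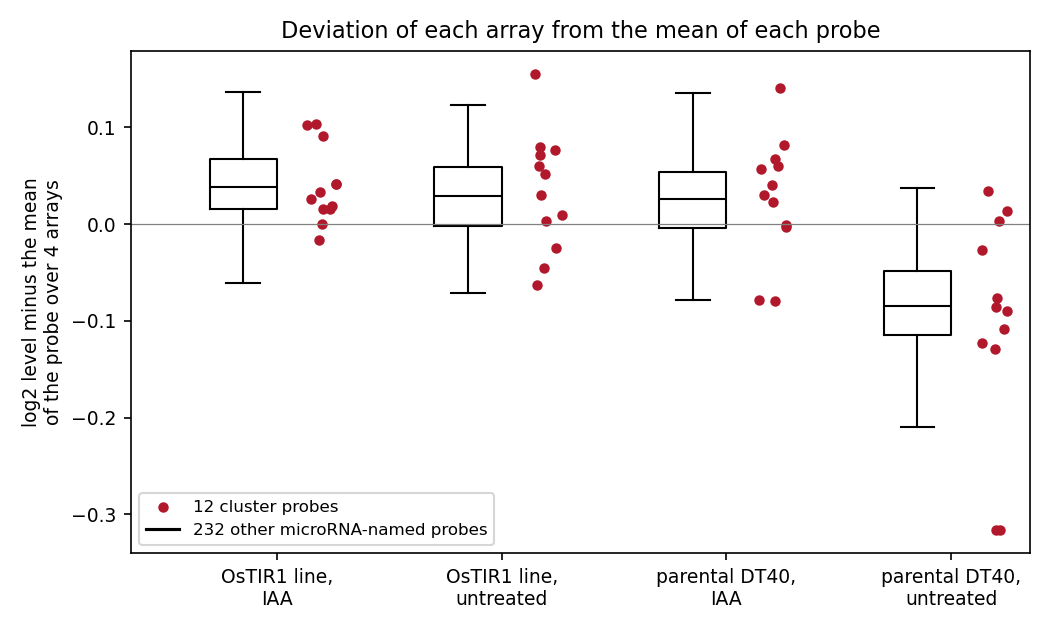
Deviation of each array from the mean of a probe over the 4 arrays (vertical axis, log2), as boxes for the 232 other microRNA-named probes (median, quartiles and whiskers to the furthest value within 1.5 times the box, values beyond not drawn) and as red points for the 12 cluster probes. The medians on the untreated parental array are -0.09 for both sets, and the points of A_87_P008650 and A_87_P008657 lie at -0.32.

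Position on the slide was looked at beside this. A_87_P008657 and A_87_P008648 lie in a region of the surface, 1 of 16, that stood apart on the untreated parental array, where 11.8% of the probes below background elsewhere were above it. Another such region, with 11.2%, held 0 cluster probes, and the share was at most 1.89% in the remaining 14. The cluster probes with the lowest deviations on the untreated parental array were A_87_P008650 and A_87_P008657, both at -0.32, while the 100 nearest measured probes had medians of -0.03 and -0.01. With those neighbours' medians subtracted on each array, A_87_P008650 differed by 0.41 between the untreated lines and A_87_P008657 by 0.45 with IAA in parental DT40.

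How far the 2 probes of a name went together differed between names. The gap between their mean levels ran from 0.01 for gga-mir-18a to 0.22 for gga-mir-17-5p, with a median of 0.06 over the 6 names and 0.07 over the 108 other names with 2 probes. A small mean gap can hide gaps that cancel over arrays. For gga-mir-18a, the probe with the higher identifier minus the other was 0.34 in untreated parental DT40 and -0.19 in the untreated OsTIR1 line. For gga-mir-17-5p it stayed between -0.25 and -0.21 on every array. For IAA in parental DT40 the gga-mir-17-5p probes gave 0.15 and 0.15, and the gga-mir-20a probes 0.15 and 0.19. The gga-mir-18a probes gave 0.37 and -0.01, and the gga-mir-19b probes 0.01 and 0.46.

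For IAA in parental DT40, 4 of the 108 other names had a larger gap than the 0.45 of gga-mir-19b, and 5 a larger one than the 0.39 of gga-mir-18a. Between the untreated lines the gga-mir-18a probes were 0.53 apart, and 2 of the 108 had a larger gap. Both differences with an interval above 0 were therefore seen at 1 probe of a name, and the other probe of the name had -0.06 for gga-mir-18a between the untreated lines and 0.01 for gga-mir-19b with IAA in parental DT40. The probes of a name had the same sign for 4 of 6 names between the untreated lines, against 95 of the 108 other names (88.0%), and for 4 of 6 with IAA in parental DT40, against 86 of 108 (79.6%). In each of the other comparisons they had it for 3 of 6 names and for 58 of 108 (53.7%). Of the other 232 microRNA-named probes, 209 were higher between the untreated lines and 208 with IAA in parental DT40. A shared sign there thus says little about how the probes of a name agree. Over the 108 names, the differences at the 2 probes had Pearson correlations of 0.08 between the untreated lines and 0.02 for IAA in parental DT40. Such values can hinge on a few names with 1 far-off probe. The gga-mir-183 probes gave 0.09 and 1.97 between the untreated lines, and 0.16 and 1.80 for IAA in parental DT40. With IAA, the correlation between the lines was 0.02, and the largest gap was 1.51. For IAA in the OsTIR1 line, where the largest gap was 0.26, the correlation was 0.22. How far the probes of a name agree in general was therefore not settled by these correlations.

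**Figure D5:**
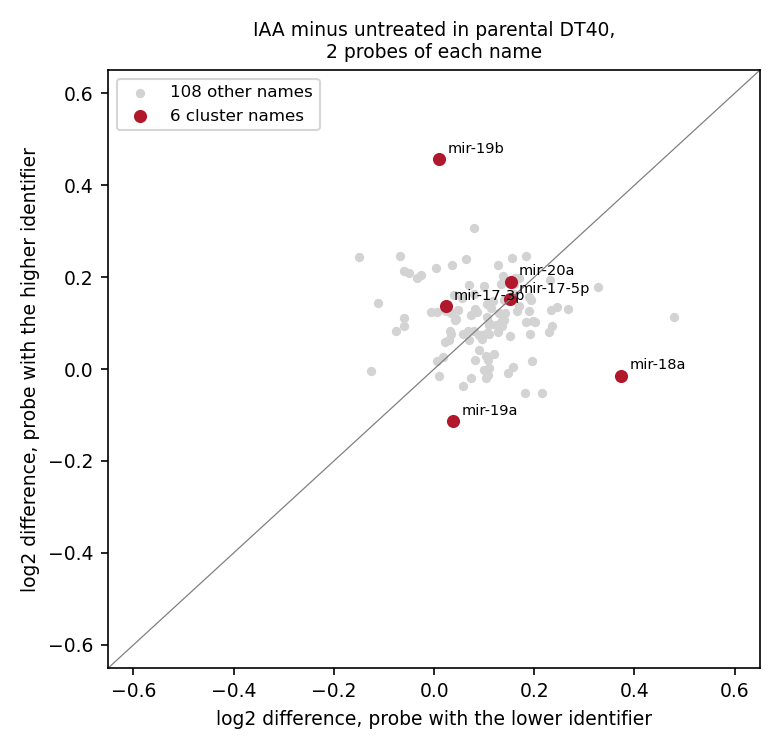
Log2 difference of IAA minus untreated in parental DT40 at the probe with the lower identifier (horizontal axis) and the higher identifier (vertical axis) of each microRNA name, with 6 cluster names in red and 108 other names in grey, of which 4 lie outside the axes. The gga-mir-17-5p and gga-mir-20a points lie on or near the line of equal values, and gga-mir-18a and gga-mir-19b lie far from it.

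A limma model with line and IAA terms was fitted over the 4 arrays to the 23100 probes above background on at least 2 of them. It has 1 residual degree of freedom and takes the treatments as repeats of each line and the lines as repeats of the treatment. At a Benjamini-Hochberg adjusted p under 0.05 it called 0 of 12 cluster probes for the line (0% of all probes) and 0 of 12 for IAA (0% of all). Before adjustment, 0 of 12 had a p under 0.05 for the line (18.8% of all probes), and 0 of 12 for IAA (4.87% of all).

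The smallest adjusted p for the line was 0.328, at A_87_P008656 of gga-mir-19b with a fitted difference of 0.17 in limma. Its levels were 0.17 and 0.16 in the OsTIR1 line with and without IAA, and 0.002 and -0.01 in parental DT40 with and without IAA. The gga-mir-18a probe A_87_P008650 had a fitted line difference of 0.26 with a limma adjusted p of 0.433. With normexp background correction and quantile normalization that difference was 0.24, with a limma adjusted p of 0.0222. In that setting 2795 of the 23100 probes were called for the line, and the probe's line difference without IAA was 0.39. The other gga-mir-18a probe, A_87_P008651, had a fitted line difference of -0.01 there. At the cluster probes, limma's p in that setting followed the size of the fitted difference alone, so a probe's own disagreement between treatments did not count. For IAA the largest fitted difference was 0.24 at A_87_P008657 of gga-mir-19b, with a limma adjusted p of 0.955.

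Groups that did not overlap were counted as well. Both OsTIR1 arrays were above both parental arrays at 5 of 12 cluster probes (30.5% of all probes), namely both gga-mir-17-5p probes, A_87_P008646 of gga-mir-17-3p, A_87_P008650 and A_87_P008656. They were below at 0 of 12 (26.6% of all). Both IAA arrays were above both untreated arrays at 5 of 12 (9.54% of all), namely both gga-mir-20a probes, A_87_P008647, A_87_P008652 and A_87_P008657, and below at 1 of 12, A_87_P008653 (12.2% of all). Of the other 232 microRNA-named probes, 86 lay above for the line (37.1%) and 81 for IAA (34.9%). Only 4 of these 232 lay below for the line (1.7%) and 5 for IAA (2.2%), so few calls below are not particular to the cluster. After median scaling, A_87_P008653 was higher with IAA in both lines, so its place in this count depends on the scaling.

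The related cluster of the vertebrate genome, from which miR-106, miR-18b and miR-20b come, had 6 probes. Their median differences were 0.03 between the lines with IAA and 0.15 without it, and 0.01 for IAA in the OsTIR1 line and 0.15 in parental DT40. At both gga-mir-20b probes, of the same seed family as gga-mir-20a, IAA in parental DT40 gave 0.16. All 4 medians lie within the range of the mir-17-92 probes in the same comparison. So do the medians of the other 232 microRNA-named probes and of all measured probes, so nothing about likeness of the clusters follows.

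The mean profile of the 12 probes deviated from its own mean by 0.04 in the OsTIR1 line with IAA, 0.03 in that line without it, 0.03 in parental DT40 with IAA and -0.10 in parental DT40 without it. Among 255 other probes with a microRNA name or a gene symbol, measured on all 4 arrays, the profiles most like it by Euclidean distance over the 4 arrays belonged to probes of gga-mir-15a (0.007), gga-mir-222a (0.01), gga-mir-32 (0.01), gga-let-7g (0.02) and gga-mir-33 (0.02). The cluster's own probes lay at distances from 0.03 for A_87_P008649 of gga-mir-17-5p to 0.26 for A_87_P008650 of gga-mir-18a. These 5 were picked as the nearest of the 255, and 232 of the 255 carry a microRNA name. That they have microRNA names and lie nearer than the 12 members thus follows largely from the choice, and nothing is concluded from it.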

How the data were processed

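Total RNA of 4 cultures was labelled with Cy3 and hybridised to 1 array each, per the labels. Groups came from the sample titles. The deposited intensity values were made with Agilent Feature Extraction 10.5.1.1, which subtracted background and detrended each array, per the file headers. They are not scaled between arrays. A deposited series-level table has these intensities times a nearly constant factor for each array (medians 4.40 to 4.63), for a reason not given in the sources used here. Within an array the factor ranged over 0.04 to 0.05, so differences from that table shift slightly. Its column medians were 55.9 and 60.5 for the OsTIR1 line with and without IAA, and 58.8 and 65.6 for parental DT40 with and without IAA. The flag for spots well above background came with the deposited intensities.

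The 1417 control spots were left out and 0 spots were saturated. Differences were taken on the log2 scale after dividing by the 75th percentile. limma 3.58.1 in R 4.3.3 fitted line and IAA, with Benjamini-Hochberg adjustment over all probes tested. The fit was also run on simulated data with probe variances drawn from the fit itself. The check there was on the size of the estimates and not on the number of calls. Every probe of the cluster is named. The 5 other probes nearest in profile are named too, and context probes of other tissues were picked after their values were seen. The rule for the members uses probe names and no measured value. That rule, the lists and the tests were still chosen with earlier results of these data known. The alternatives were 8 other settings of the fit, and the series-level table, neighbour medians and centring for the differences. The files used here have no mean spot signal, so normexp used the median spot signal with an offset of 50. Each culture is 1 sample, so p-values rest on the residual of the additive fit, which limma shrinks toward a variance estimated from all probes. They do not measure how repeat cultures of a group vary. Probe sequences were not used here.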

Additional observations from a re-analysis of the deposited data

Results flagged for a closer look

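Some cluster probes had differences of opposite sign in the groups compared. With 1 array per group the differences between groups were not tested, and every value below is smaller than its nominal interval's half-width of about 0.40. The shares of all measured probes with such signs are 48.8% for IAA in the lines and 31% for the line difference with and without IAA. The signs depend on the scaling: with median scaling all 12 probes were higher with IAA in both lines. Higher in the OsTIR1 line were then 12 of 12 without IAA and 10 of 12 with it.

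For IAA, A_87_P008646 of gga-mir-17-3p had -0.0303 in the OsTIR1 line and 0.0233 in parental DT40. A_87_P008648 of gga-mir-17-5p had -0.0535 in the OsTIR1 line and 0.152 in parental DT40, and A_87_P008649 of the same name had -0.0098 in the OsTIR1 line and 0.153 in parental DT40. A_87_P008650 of gga-mir-18a had -0.0524 in the OsTIR1 line and 0.374 in parental DT40, and A_87_P008651 of the same name had 0.078 in the OsTIR1 line and -0.0145 in parental DT40.

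For the OsTIR1 line against parental DT40, A_87_P008647 of gga-mir-17-3p had -0.019 with IAA and 0.0521 without it. A_87_P008651 of gga-mir-18a had 0.0342 with IAA and -0.0583 without it. A_87_P008657 of gga-mir-19b had -0.0381 with IAA and 0.388 without it. A_87_P008654 of gga-mir-20a had -0.0516 with IAA and 0.0888 without it, and A_87_P008655 of the same name had -0.0663 with IAA and 0.118 without it.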

How the results depend on the processing

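With 1 array per group, the deposited data give values per culture, and differences below about 0.40 on the log2 scale are inside the scanner software's nominal interval. Over all probes, limma calls for the line numbered 0 in the setting reported, 2795 with normexp and quantile normalization, 910 with probes above background on every array alone, and 2970 with a trend and robust prior; for IAA they numbered 0 in the setting reported, 109 with normexp and 8 with the trend and robust prior. The cluster probes had 1 call in these settings, the gga-mir-18a probe A_87_P008650 for the line with normexp. The median of the 12 probes ranged from -0.02 to 0.05 over the settings for the line with IAA, from -0.01 to 0.21 for the line without IAA, from -0.0009 to 0.11 for IAA in the OsTIR1 line and from 0.04 to 0.31 for IAA in parental DT40. The upper ends come from median scaling, which also moved the median of all measured probes to 0.06, 0.11, 0.10 and 0.16 in these comparisons, and the lower ends come from centring on the other microRNA-named probes except for the line with IAA. With median scaling A_87_P008657 reached 0.62 for IAA in parental DT40, past 1.5-fold. Limiting the differences to probes above background on all arrays, or using all probes, left the 12 as they are, since all were above background. Neighbour medians and centring were chosen after seeing the data. No paired analysis was possible because the labels give no replicate numbers and each group holds 1 sample, so the only blocking is that of the additive fit, where line and IAA stand as terms.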
